A study of Homo sapiens with 6 samples.

Results

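The genes described here are 8 nuclear genes whose proteins copy and transcribe the mitochondrial genome: POLRMT, TFAM, TFB2M and TEFM for transcription, and POLG, POLG2, C10orf2 (Twinkle, called TWNK in newer annotations) and SSBP1 for replication. They were chosen by name, each name matched 1 identifier among the 60675 in the count tables, and all 8 passed the filter on low counts that left 13275 genes. The RNA came from OCI-AML-2 cells, a human acute myeloid leukaemia line, after precipitation with J2, an antibody that binds double-stranded RNA. In 3 libraries the transduced cells expressed a short hairpin RNA that targets PNPT1 (PNPase, a 3′ to 5′ exoribonuclease) and in 3 libraries one that targets SUPV3L1 (SUV3, an RNA helicase that works with PNPase in the mitochondrial matrix). The series' design text calls the 3 samples of each group biological replicates. All 6 libraries carry a knockdown, so a difference is always SUPV3L1 knockdown against PNPT1 knockdown, and levels are those of precipitated RNA, in which fewer transcripts and weaker precipitation cannot be told apart. Libraries of cells without a knockdown and of RNA before precipitation were not analysed here. The hairpin sequence of each library is not given in the sources here, and the libraries of a group may not share one.

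Mitochondrial DNA is a small circle whose genes, rRNAs and tRNAs included, are read from both strands as long transcripts that are then cut up, which is one source of double-stranded RNA in the organelle. POLRMT, the single-subunit mitochondrial RNA polymerase, starts at a promoter with TFAM, which bends and packages the DNA, and TFB2M, which helps to melt it, and TEFM then keeps the polymerase moving. At the replication fork Twinkle unwinds the duplex, SSBP1 coats the single strands, and DNA polymerase gamma, the catalytic subunit POLG with its accessory subunit POLG2, makes the new strand.

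Short promoter sites are shown first because NRF-1 and GABP, transcription factors known for controlling genes of the mitochondrial transcription machinery such as TFAM, are a feature by which these genes are usually grouped. RefSeq promoter windows on GRCh38.p14, from 250 bases before to 50 bases after a transcript start, were held for 7 of the 8 genes. They were searched on both strands for the core of the NRF-1 site, GCGC followed by A, any base and GCGC, and for CCGGAAG, a core of the GABP site, and the motifs do not overlap in the sites found. The NRF-1 letters were found at 3 of the 7 genes (POLRMT, TFAM and POLG2), against 5.78% of all promoter windows, and the GABP letters at 4 (POLRMT, TEFM, POLG2 and SSBP1), against 10.3%. TFB2M and POLG held neither. The counts are of genes and the percentages of windows, of which a gene can have several (SSBP1 had 3), so they are not counted alike. The lines below give 30 bases around each match, 5′ to 3′ on the strand of the gene, with the matched bases in capitals.
POLRMT, NRF-1, chr19:633539-633568, minus strand: ggcgcggGCGCATGCGCAGGCGCgggccgg
TFAM, NRF-1, chr10:58385337-58385366, plus strand: acgctctcccGCGCCTGCGCcaattccgcc
POLG2, NRF-1, chr17:64497049-64497078, minus strand: cacctccgttGCGCCTGCGCcgtggcctct
POLRMT, GABP, chr19:633613-633642, minus strand: cctgggagtctaCTTCCGGctggggtttcc
POLG2, GABP, chr17:64497096-64497125, minus strand: cgcagacatgcgCTTCCGGggtggggcctg
TEFM, GABP, chr17:30906227-30906256, minus strand: agcacgcaggaaCCGGAAGtcaatggagga
SSBP1, GABP, chr7:141738351-141738380, plus strand: gttccctgtgcgCCGGAAGtgatcccctgc
POLRMT holds 3 overlapping NRF-1 matches within 24 bases of its start, counting both strands, and its capitals cover them together. The NRF-1 match of TFAM begins 63 bases before its start and that of POLG2 14 bases before. These distances, that of POLRMT included, are from RefSeq transcript starts, which differ from the bounds of the GENCODE 29 gene models given below. Within those bounds lie the NRF-1 matches of POLRMT and TFAM and the GABP matches of TEFM and SSBP1 printed here. POLRMT and POLG2 hold both motifs. A match is a description of the letters, and no factor's binding was measured in these libraries.

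The libraries held 5852090 to 11361371 counts assigned to genes. PNPT1 knockdown replicate 3 stood apart: it had the fewest counts and a TMM scaling factor of 0.669, against 0.988 to 1.21 in the others. It had 16620 genes detected, against 20765 to 22393. Of its entries 7.06% were assigned to genes and 80.1% aligned to more than 1 place, against 12.0% to 16.0% and 65.7% to 71.6%. Genes named after a few clones took 37.7% of its counts, against 10.9% to 22.1%. A low factor raises CPM (counts divided by the TMM-scaled library size, the unit of level used below), and this library had the highest CPM for 4 of the 8 genes. As a plain share of assigned counts, without TMM scaling, the 8 genes together took 228, 225 and 189 ppm with PNPT1 knocked down, and 245, 273 and 191 ppm with SUPV3L1 knocked down, so the library with the low factor had the smallest share of the 6. Of the myeloid markers, SPI1, CD33, PTPRC, CEBPA and FLT3 were at group means of 32.6 CPM or more, MEIS1 was at 123 and 45.9 CPM, HOXA9 at 33.2 and 11.2 CPM, MPO at 1.95 and 2.99 CPM, CD34 had 0 counts and KIT 0 to 5 counts per library. SPI1 and CD33 were higher, and MEIS1 lower, in SUPV3L1 knockdown without overlap (none past the test), and their part in the results below was not tested; a different number of cells of a kind and a different amount of RNA per cell cannot be told apart. Of the markers of other cell types, CD3E, EPCAM, ALB, COL1A1 and HBB had 0 to 9 counts per library, and PECAM1, which myeloid cells also express, was at means of 43.1 and 76.7 CPM. The targeted RNAs had their lower mean in their own knockdown: PNPT1 was at 14.6 CPM in its own knockdown and 28.5 in the other, and SUPV3L1 at 11.3 in its own and 18.5 in the other, and neither difference passed the test (edgeR, Benjamini-Hochberg adjusted p = 0.898 for both). For SUPV3L1 the groups overlapped: PNPT1 knockdown replicate 1, at 11.5 CPM, lay below SUPV3L1 knockdown replicates 1 and 2, at 12.2 and 12.3 CPM.

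None of the 8 genes separated the knockdowns. In edgeR's quasi-likelihood test, adjusted by Benjamini-Hochberg over all 13275 genes, 0 of the 8 passed the threshold of 0.05, as did 0 of all genes tested (0%), of which 543 had an unadjusted p under 0.05; DESeq2 called 19 genes, none of them among the 8. That count of 543 rested on single libraries: it was 2098 without PNPT1 knockdown replicate 2, 366 without its replicate 3 and 218 without SUPV3L1 knockdown replicate 1. At an unadjusted p under 0.05 there was 1 of the 8, C10orf2, against 4.09% of all genes, of which 1.7% were higher in SUPV3L1 knockdown, as C10orf2 was, and 2.39% lower. The groups' CPM overlapped for each of the 8. Over all genes 8.56% did not overlap, 4.62% with the SUPV3L1 knockdown group higher and 3.94% with it lower. Of the 8 log2 fold changes (SUPV3L1 minus PNPT1 knockdown) 4 were above 0 and 4 below, with a median of 0.017, beside a median of 0.0094 and 50.7% above 0 over all genes tested. C10orf2 differed most, with the higher mean in SUPV3L1 knockdown, and POLG2 had the lowest log2 fold change.

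**Figure D1:**
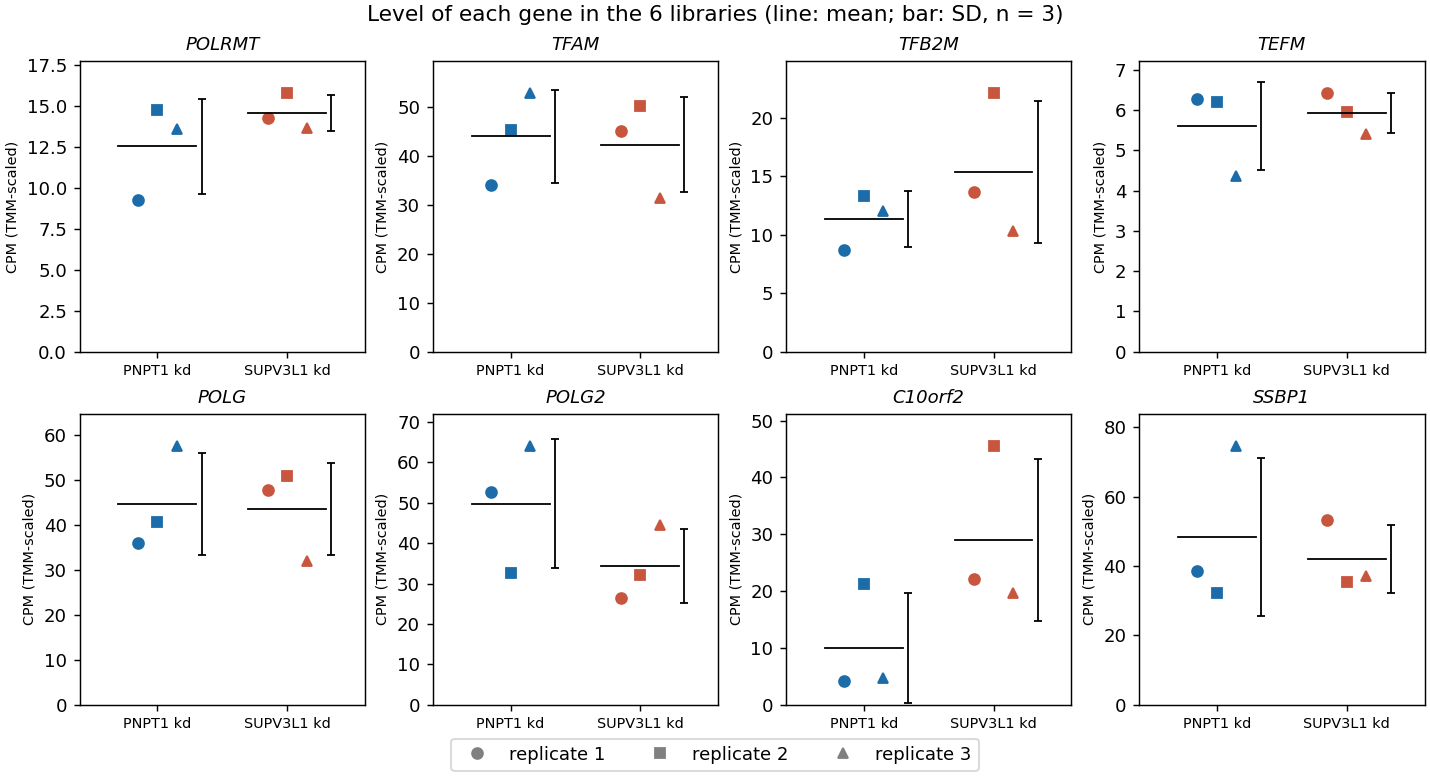
CPM after TMM scaling (vertical axis, from 0) of each of the 8 genes in the 3 PNPT1 knockdown (blue) and 3 SUPV3L1 knockdown (red) libraries, with the marker shape giving the replicate, the horizontal line the mean and the bar the SD. The groups overlap in each of the 8 panels, and the spread widest in proportion is that of C10orf2, from 4.08 to 45.5 CPM (11.1 times).

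Among the transcription genes, POLRMT (ENSG00000099821, chromosome 19, 617224 to 633604, minus strand) stood at 9.26, 14.8 and 13.6 CPM with PNPT1 knocked down (replicates 1, 2 and 3), and at 14.2, 15.8 and 13.6 with SUPV3L1 knocked down. PNPT1 knockdown replicate 1 was low, and the other 5 libraries lay within 13.6 to 15.8 CPM. Its log2 fold change was 0.22 ± 0.35 (SE, n = 3 per group), with a 95% interval of -0.56 to 0.99 (edgeR, Benjamini-Hochberg adjusted p = 0.929). It was 0.033 without PNPT1 knockdown replicate 1 and 0.35 without its replicate 2. The SD of log2 CPM among the SUPV3L1 knockdown libraries, 0.11, was no larger than the 0.12 that counting error alone gives at these counts (126 to 173). In PNPT1 knockdown its SD was 0.36, larger than a counting error of 0.16.

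TFAM (ENSG00000108064, chromosome 10, 58385022 to 58399221, plus strand) stood at 33.9, 45.1 and 52.7 CPM with PNPT1 knocked down, and at 45.1, 50.2 and 31.4 with SUPV3L1 knocked down. The highest value lay in one group and the lowest in the other, and the means, 43.9 ± 9.45 and 42.2 ± 9.72 CPM (SD, n = 3), lay closer together than the replicates did. The log2 fold change was -0.05 ± 0.32 (SE), with a 95% interval of -0.77 to 0.66 (edgeR, Benjamini-Hochberg adjusted p = 0.978). Its sign was not stable: it was 0.090 without PNPT1 knockdown replicate 3 and 0.12 without SUPV3L1 knockdown replicate 3. The pseudogenes TFAMP1 and TFAMP2 had 0 to 8 counts per library, against 206 to 549 for TFAM.

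TFB2M (ENSG00000162851, chromosome 1, 246540560 to 246566324, minus strand) stood at 8.66, 13.3 and 12.0 CPM with PNPT1 knocked down, and at 13.6, 22.1 and 10.3 with SUPV3L1 knocked down. The high mean of the latter, 15.3 ± 6.07 against 11.3 ± 2.39 CPM (SD, n = 3), comes with 1 high library, replicate 2. The log2 fold change was 0.44 ± 0.40 (SE), with a 95% interval of -0.45 to 1.33 (edgeR, Benjamini-Hochberg adjusted p = 0.898), and it was 0.076 without SUPV3L1 knockdown replicate 2 and 0.27 without PNPT1 knockdown replicate 1. TEFM (ENSG00000172171, chromosome 17, 30897336 to 30906820, minus strand) had the fewest counts of the 8, 17 to 78 per library. It was at 6.27, 6.20 and 4.35 CPM with PNPT1 knocked down, and at 6.41, 5.94 and 5.41 with SUPV3L1 knocked down, with the lowest value in PNPT1 knockdown replicate 3, where 17 counts give a counting error of 24.3%. The SD of its log2 CPM in PNPT1 knockdown, 0.30, was close to the 0.25 that counting error gives, and the groups overlapped. Its log2 fold change was 0.069 ± 0.43 (SE; edgeR, Benjamini-Hochberg adjusted p = 0.979), and -0.080 without that library and -0.0011 without SUPV3L1 knockdown replicate 1.

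Among the replication genes, POLG (ENSG00000140521, chromosome 15, 89305198 to 89334861, minus strand) stood at 35.9, 40.8 and 57.6 CPM with PNPT1 knocked down, and at 47.9, 50.9 and 31.9 with SUPV3L1 knocked down. As for TFAM, PNPT1 knockdown replicate 3 was the highest and SUPV3L1 knockdown replicate 3 the lowest, and the groups overlapped. The log2 fold change was -0.03 ± 0.33 (SE), with a 95% interval of -0.76 to 0.69 (edgeR, Benjamini-Hochberg adjusted p = 0.984). It was 0.18 without PNPT1 knockdown replicate 3 and 0.15 without SUPV3L1 knockdown replicate 3.

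POLG2 (ENSG00000256525, chromosome 17, 64477785 to 64497036, minus strand) stood at 52.7, 32.5 and 63.98 CPM with PNPT1 knocked down, and at 26.4, 32.1 and 44.4 with SUPV3L1 knocked down. PNPT1 knockdown replicates 1 and 3 were the highest libraries, while replicate 2 lay beside SUPV3L1 knockdown replicate 2 and below its replicate 3. The log2 fold change was -0.53 ± 0.35 (SE), with a 95% interval of -1.32 to 0.25 (edgeR, Benjamini-Hochberg adjusted p = 0.898). It kept its sign in each of the 14 alternatives run, between -0.78 and -0.25, and was -0.32 without PNPT1 knockdown replicate 3.

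SSBP1 (ENSG00000106028, chromosome 7, 141738321 to 141787922, plus strand) stood at 38.5, 32.0 and 74.5 CPM with PNPT1 knocked down, and at 53.3, 35.4 and 37.1 with SUPV3L1 knocked down. PNPT1 knockdown replicate 3 was the highest library and the other 2 of its group lay among the SUPV3L1 knockdown libraries. The log2 fold change was -0.20 ± 0.38 (SE; edgeR, Benjamini-Hochberg adjusted p = 0.936), and 0.24 without that library.

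C10orf2 (ENSG00000107815, chromosome 10, 100987367 to 100994401, plus strand) stood at 4.08, 21.2 and 4.61 CPM with PNPT1 knocked down, and at 22.0, 45.5 and 19.6 with SUPV3L1 knocked down. PNPT1 knockdown replicates 1 and 3, with 41 and 18 counts, were low, and replicate 2, with 243 counts, lay among the SUPV3L1 knockdown libraries, which had 181 to 482. The log2 fold change was 1.51 ± 0.63 (SE), at the 98.5th percentile of all genes tested, with a 95% interval of 0.12 to 2.90 and an unadjusted p of 0.0358 (edgeR, Benjamini-Hochberg adjusted p = 0.898). It stayed above 0 in each of the 14 alternatives. Without PNPT1 knockdown replicate 2 it was 2.74, and without SUPV3L1 knockdown replicate 2, the highest library, 1.03; its adjusted p ranged from 0.0480, in edgeR without the expression filter, where 187 genes passed, to 0.999. Its SD of log2 CPM was 1.33 in PNPT1 knockdown, where counting error gives 0.24, and 0.66 in SUPV3L1 knockdown, where it gives 0.089. The spread within both groups was therefore larger than counting error. MRPL43, which lies on the opposite strand and shares 149 exon bases with C10orf2 at its 5′ end, was at 8.86, 8.56 and 24.6 CPM with PNPT1 knocked down, and at 15.6, 12.6 and 13.3 with SUPV3L1 knocked down, a different order of the libraries.

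**Figure D2:**
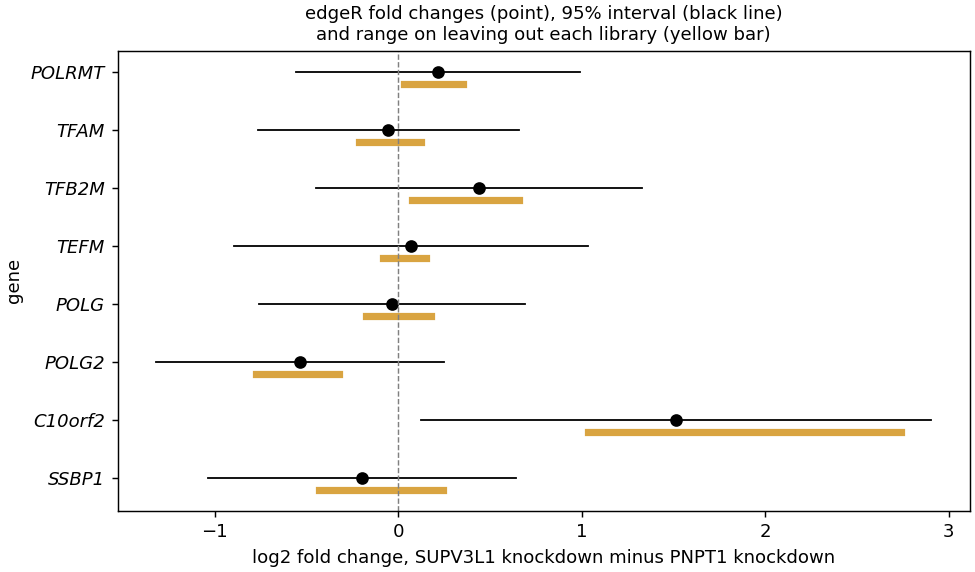
Log2 fold change of each gene, SUPV3L1 minus PNPT1 knockdown (horizontal axis), from edgeR with all 6 libraries (black point), its 95% interval (black line) and the range of values with any 1 library left out (yellow bar). The interval of C10orf2 (0.12 to 2.90, before correction for multiple tests) lies above 0 and the other 7 intervals include 0; the yellow bars of TFAM, TEFM, POLG and SSBP1 cross 0.

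Over the libraries, 5 of the 8 genes ran close to the mean profile of the 8 and 3 lay farther off. Likeness was measured as the root mean square difference between 2 genes' log2 CPM over the 6 libraries, each centred on its own mean. From the mean of the 8, of which each gene is itself a part, POLRMT differed by 0.10, TFAM by 0.19, TFB2M and POLG by 0.22 and TEFM by 0.29, all under the first quartile of 9729 genes, 0.35. SSBP1 differed by 0.46, POLG2 by 0.59 and C10orf2 by 1.09. The 9729 genes have no part in the mean of the 8, so their quartile is not a like comparison. TFAM and POLG differed by 0.088, the smallest value of the 28 pairs, and counting error alone gives 0.11 for them. Of the other 13273 genes tested, 13 were at least as close to TFAM as POLG was, and 10 at least as close to POLG as TFAM was. The next pair, POLRMT and TFAM, differed by 0.24, and the pairs of C10orf2 by 0.97 (with TFB2M) to 1.63 (with POLG2). These values are over 6 libraries that share the scaling of each library, and they are descriptions of likeness in level.

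C10orf2 had its own neighbours. Of 9729 genes with a mean of 50 counts or more, the 5 closest to it were CCDC86, GPATCH4, NCOA5, RRP9 and IFRD2, at 0.19 to 0.30, where the median gene was at 1.30 (a search made after the values of C10orf2 had been seen). CCDC86 and GPATCH4 are nucleolar proteins, and RRP9 is a protein of the U3 small nucleolar RNP, which works in ribosome assembly. NCOA5, at 0.24 closer to C10orf2 than RRP9 at 0.29, and IFRD2 are not described here. Whether the 5 share a function was not tested. CCDC86 was at 1.79, 13.3 and 2.82 CPM with PNPT1 knocked down, and at 11.2, 21.8 and 9.10 with SUPV3L1 knocked down. GPATCH4 was at 4.78, 27.7 and 5.63 CPM and at 26.6, 50.2 and 15.7 CPM. As with C10orf2, PNPT1 knockdown replicates 1 and 3 were low and replicate 2 was not. Around the mean profile of all 8 genes, the 5 closest were TTC1, AFG3L2, NOL10, CCHCR1 and ZW10, at 0.054 to 0.069 with a median gene at 0.48. AFG3L2 is a subunit of the mitochondrial m-AAA protease. TTC1, NOL10, CCHCR1 and ZW10 are not described here, and whether genes near the mean profile share a function was not tested.

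**Figure D3:**
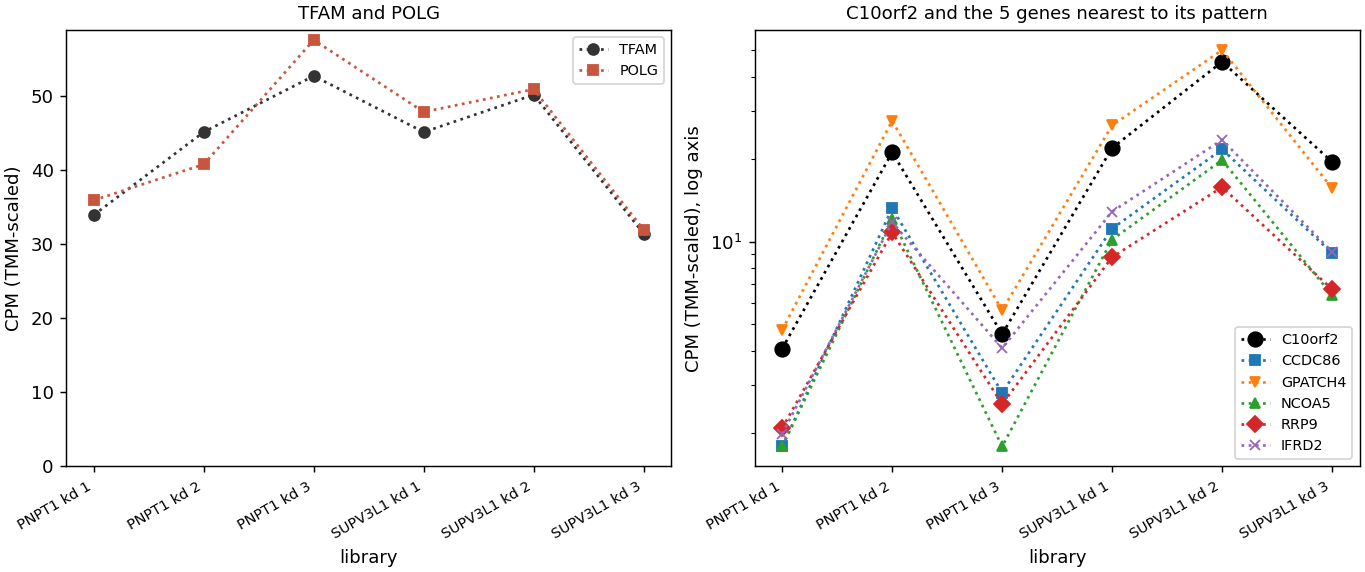
CPM in each library (horizontal axis) of TFAM and POLG (left, from 0) and of C10orf2 with the 5 genes closest to its pattern (right, log axis); dotted lines only help to follow a gene, since libraries have no order. TFAM and POLG lie within a root mean square difference of 0.088 log2 units of each other after centring, and C10orf2 is low in PNPT1 knockdown replicates 1 and 3 (4.08 and 4.61 CPM).

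Ratios within a library need no scaling between libraries, and 6 of them were compared as log2 ratios of counts, with group means compared by an exact two-sided permutation test. With 3 libraries against 3 that test cannot give a p below 0.1. The ratio of Twinkle to polymerase, C10orf2 to POLG, differed most. It was -3.12, -0.94 and -3.61 in PNPT1 knockdown and -1.12, -0.16 and -0.70 in SUPV3L1 knockdown, a difference of 1.90 on the log2 scale (exact permutation p = 0.2, Benjamini-Hochberg adjusted p = 0.6 over 6 ratios). PNPT1 knockdown replicate 2 lay above SUPV3L1 knockdown replicate 1, so the groups overlapped. The accessory to catalytic subunit ratio, POLG2 to POLG, was 0.55, -0.33 and 0.15 in PNPT1 knockdown and -0.86, -0.67 and 0.47 in SUPV3L1 knockdown (difference -0.48, exact permutation p = 0.3, Benjamini-Hochberg adjusted p = 0.6). It moved to -0.22 without SUPV3L1 knockdown replicate 1, -0.26 without PNPT1 knockdown replicate 1 and -0.89 without SUPV3L1 knockdown replicate 3. In each group a library did not follow the others. SUPV3L1 knockdown replicate 3 had more counts of POLG2 than of POLG, as had PNPT1 knockdown replicates 1 and 3. PNPT1 knockdown replicate 2 had fewer counts of POLG2 than of POLG, as had SUPV3L1 knockdown replicates 1 and 2.

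Of the transcription genes, 3 were set against POLRMT. TFAM to POLRMT was 1.87, 1.61 and 1.95 in PNPT1 knockdown and 1.66, 1.67 and 1.20 in SUPV3L1 knockdown, a difference of -0.30 (exact permutation p = 0.3, Benjamini-Hochberg adjusted p = 0.6). Leaving out SUPV3L1 knockdown replicate 3 gave -0.14. TFB2M to POLRMT was steady in PNPT1 knockdown, at -0.096, -0.15 and -0.17, and spread in SUPV3L1 knockdown, at -0.059, 0.49 and -0.41 (difference 0.15, -0.093 without SUPV3L1 knockdown replicate 2 and 0.35 without its replicate 3). TEFM to POLRMT differed by -0.15, by 0.14 without PNPT1 knockdown replicate 1 and by -0.39 without its replicate 3. SSBP1 to POLG differed by -0.092, by 0.072 without PNPT1 knockdown replicate 3 and by 0.14 without SUPV3L1 knockdown replicate 2. The exact permutation p was 0.7 to 0.8 for these 3 ratios (Benjamini-Hochberg adjusted p = 0.8 for each).

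**Figure D4:**
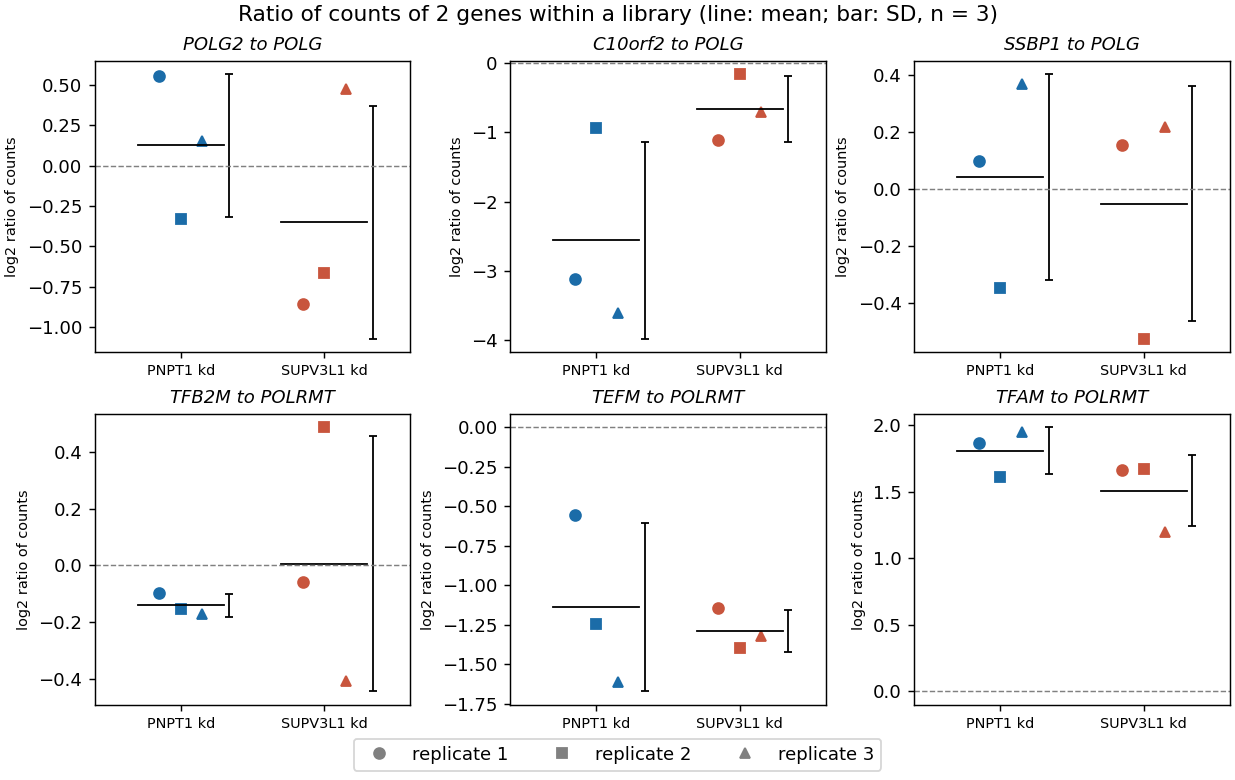
Log2 ratio of the counts of 2 genes in the same library (vertical axis, 0 means equal counts) for 6 pairs, in PNPT1 knockdown (blue) and SUPV3L1 knockdown (red), with the mean as a line and the SD as a bar. The groups overlap in each panel; C10orf2 to POLG has the widest gap between means, 1.90.

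Levels of different genes can be set side by side only per length, for which the deposited FPKM were used. Over the 6 libraries the mean FPKM was 7.25 ± 1.80 for POLG2, 6.22 ± 1.12 for SSBP1, 5.51 ± 1.31 for TFAM, 5.24 ± 1.10 for POLG, 4.90 ± 2.13 for TFB2M, 3.24 ± 2.50 for C10orf2, 2.02 ± 0.485 for POLRMT and 1.36 ± 0.413 for TEFM (SD over both groups, n = 6). The polymerase POLRMT and its elongation factor TEFM had the lowest means, and the accessory subunit POLG2 and the single-strand binding protein SSBP1 the highest. The order of the group means was not the same in both groups: C10orf2 was at a mean of 1.76 FPKM in PNPT1 knockdown, beside POLRMT at 1.78, and at 4.73 FPKM in SUPV3L1 knockdown. TFB2M was at a mean of 3.87 FPKM, below POLG and TFAM, in PNPT1 knockdown, and at 5.93 FPKM, above both, in SUPV3L1 knockdown. The latter mean rests on replicate 2, at 8.46 FPKM, since TFB2M was below both genes in SUPV3L1 knockdown replicates 1 and 3. In PNPT1 knockdown replicate 2 TFB2M lay above POLG, at 5.61 against 5.43 FPKM. Neighbours in the order were compared within libraries on log2(FPKM + 0.1) with an exact sign-flip permutation test, whose smallest p is 0.0312 for 6 libraries. The order was taken from these same FPKM, so the sorting largely set the direction of each pair and the test does not inform it. At that smallest p a lone pair cannot pass the threshold of 0.05 after correction over 7 pairs. None of the 7 neighbour pairs passed, which was therefore nearly fixed in advance. TFB2M was above C10orf2 in 6 of 6 libraries, by 0.91 ± 0.81 (SD) on the log2 scale (exact permutation p = 0.0312, Benjamini-Hochberg adjusted p = 0.219 over 7 pairs). POLRMT was above TEFM in 5 of 6 libraries, by 0.57 ± 0.40 (SD) (exact permutation p = 0.0625, Benjamini-Hochberg adjusted p = 0.219). For the other 5 pairs the mean differences, 0.060 to 0.25, were smaller than their SD. C10orf2 changed place most, from the last of the 8 in PNPT1 knockdown replicates 1 and 3 to the second in SUPV3L1 knockdown replicate 2. Without the latter library it was 0.011 below POLRMT on the log2 scale.

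**Figure D5:**
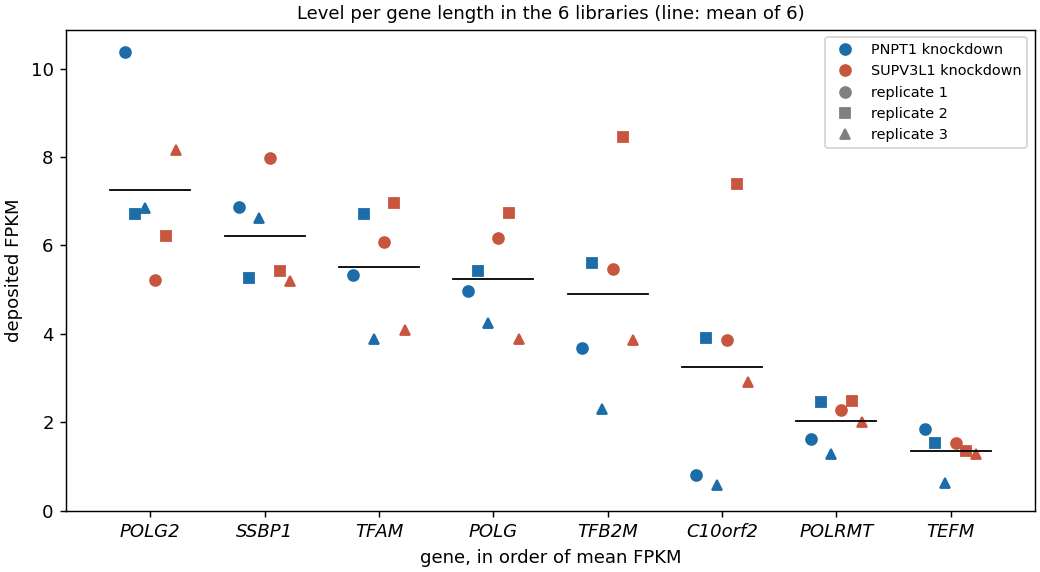
Deposited FPKM (vertical axis, from 0) of the 8 genes in order of their mean over 6 libraries (black line), with PNPT1 knockdown in blue and SUPV3L1 knockdown in red. POLRMT and TEFM have the lowest means (2.02 and 1.36), and C10orf2 spreads from 0.578 to 7.40 FPKM.

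The FPKM and the CPM place PNPT1 knockdown replicate 3 differently. That library had the highest CPM of TFAM and POLG and low FPKM, the lowest of the 6 for TFAM at 3.88 and the second lowest for POLG at 4.25, against 5.34 and 4.98 in replicate 1. On log2(FPKM + 0.1) the log2 fold changes of TFAM and POLG were 0.10 and 0.16, with the sign turned, while the median of all genes was 0.17.

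Other genes of the pathway were taken from 5 lists, and no member of any list passed edgeR's test after Benjamini-Hochberg adjustment over all genes (smallest adjusted p = 0.898). Of 14 names of other genes of mitochondrial DNA replication and maintenance, 13 were found by name. All 13 were measured, and 9 were above 0 in log2 fold change (median 0.15). EXOG, a mitochondrial exonuclease, was at 3.58, 10.4 and 3.07 CPM with PNPT1 knocked down, and at 11.3, 14.4 and 10.4 with SUPV3L1 knocked down, and FEN1, a flap endonuclease shared with the nucleus, at 6.87, 24.4 and 4.35 and at 28.0, 36.1 and 9.31 CPM. Both were low in PNPT1 knockdown replicates 1 and 3, as C10orf2 was. The groups overlapped for FEN1, and for EXOG did not (10.4 CPM on both sides of the gap, to 3 digits). They did not overlap either for LIG3, which was lower in SUPV3L1 knockdown, at 70.5 ± 3.79 against 59.5 ± 6.89 CPM (SD, n = 3). ATAD3A, with a log2 fold change of 0.40 ± 0.68 (SE), was low in those replicates too, at 1.79 and 3.58 CPM against 9.95 in replicate 2. DNA2, a helicase and nuclease, was at 27.3 ± 5.11 against 19.7 ± 5.56 CPM (SD, n = 3). Of 12 names of other genes of mitochondrial transcription, termination and transcript binding, 8 were found by name. Of these, 7 were measured and 4 were above 0 (median 0.15), and MTERF2 had 0 counts. LRPPRC, which binds mitochondrial mRNAs, was at 149 ± 36.3 CPM in PNPT1 knockdown and 110.5 ± 8.15 in SUPV3L1 knockdown, TFB1M, an rRNA methyltransferase related to TFB2M, at 9.53 ± 0.185 and 7.76 ± 1.85, and MTERF4 at 15.2 ± 8.93 and 20.04 ± 2.07 CPM (SD, n = 3). The groups did not overlap for LRPPRC and TFB1M, and overlapped for MTERF4, where 8.56% of all genes tested did not overlap.

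Of 16 genes of deoxynucleotide supply, 15 were measured and 8 were above 0 (median 0.018). TYMP, thymidine phosphorylase, was at 4.18, 4.89 and 2.56 CPM with PNPT1 knocked down, and at 20.1, 4.81 and 12.9 with SUPV3L1 knocked down, so SUPV3L1 knockdown replicate 2 lay within the other group. CMPK2, a mitochondrial nucleotide kinase, was at 1.32 ± 0.692 against 3.24 ± 0.306 CPM and SLC25A36, a pyrimidine nucleotide carrier, at 78.9 ± 49.0 against 41.1 ± 16.3 CPM (SD, n = 3). The groups did not overlap for CMPK2 and overlapped for SLC25A36. Of 12 nuclear regulators of mitochondrial biogenesis, all measured, 7 were above 0 (median 0.13). NRF1 itself was at 16.0 ± 0.781 and 13.3 ± 3.25 CPM and GABPA at 38.9 ± 15.5 and 27.2 ± 2.93 CPM (SD, n = 3; named because their motifs were searched). PPRC1, a coactivator of the PGC-1 family, was at 12.1, 36.4 and 10.7 CPM with PNPT1 knocked down, and at 43.7, 60.4 and 28.6 with SUPV3L1 knocked down. MYC was at 44.7, 170 and 58.3 CPM and at 218, 217 and 123 CPM. Both were low in the same PNPT1 knockdown replicates as C10orf2. SP1 was at 167 ± 52.2 and 111 ± 13.1 CPM (SD, n = 3). Unlike them it was high in PNPT1 knockdown replicates 1 and 3, at 193 and 202 CPM against 107 in replicate 2. PPARGC1A was higher in SUPV3L1 knockdown without overlap, at means of 1.10 and 2.66 CPM. Of 10 genes of nucleoid packaging and proteolysis, all measured, 5 were above 0 (median -0.045). SHMT2, a mitochondrial serine hydroxymethyltransferase, was at 56.8, 94.4 and 132 CPM with PNPT1 knocked down, and at 47.2, 46.9 and 53.7 with SUPV3L1 knocked down, without overlap, while PHB2 and HSPD1 had log2 fold changes of -0.45 ± 0.39 and -0.41 ± 0.45 (SE).

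The products of mitochondrial transcription can be set beside these genes library by library. The mitochondrial share of assigned counts was 21.7%, 26.6% and 11.3% in PNPT1 knockdown and 34.4%, 33.6% and 42.0% in SUPV3L1 knockdown. SUPV3L1 knockdown replicate 3 had the highest share and, at 31.4 and 31.9 CPM, the lowest TFAM and POLG of the 6 libraries, and POLRMT at 13.6 CPM, within the range of the other libraries. In FPKM its POLG was also the lowest, at 3.89, but its TFAM, at 4.09, was not. PNPT1 knockdown replicate 3, with the lowest share, had the highest CPM of TFAM and POLG but the lowest FPKM of TFAM, at 3.88. A relation between the share and these levels was not tested. All 15 mitochondrial rRNAs and mRNAs had a log2 fold change above 0 (median 0.55), with 0 past the threshold.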

How the data were processed

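The authors deposited a table of whole-number read counts per Ensembl gene for each of 6 libraries, and 1 table of FPKM for all of them. They list StringTie 2.1.4, HTSeq, SAMtools 1.14, HISAT2 2.2.1 and GRCh38, per the submitters' processing notes. The sources used here give neither HTSeq's strand setting nor an annotation release, so reads of a gene and of one on the opposite strand may not be separated. The 5 summary lines were left out; genes received 7.06% to 16.0% of entries, and 65.7% to 80.1% aligned to more than 1 place. Replicates were numbered in accession order.

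Counts were tested in edgeR 4.0.16 (R 4.3.3), all genes in 1 quasi-likelihood fit after TMM scaling and its default filter on expression (minimum count 10, total 15), with Benjamini-Hochberg adjustment and a threshold of 0.05. Each standard error is the log2 fold change divided by the root of F. The script was tested on simulated data with less spread between libraries than these data have. That test does not show which differences can be found here. Ratios used counts + 0.5. Counting errors are Poisson errors only. Alternatives were DESeq2 1.42.0, RLE scaling, no filter, a minimum count of 50, leaving out mitochondrial genes, limma 3.58.1 on log2(FPKM + 0.1) and log2(FPKM + 1), and leaving out each library. Leaving out mitochondrial and clone-named genes was added after the data were seen. The 8 genes and the lists were chosen with earlier results of these data known. Named genes were the 8, PNPT1 and SUPV3L1, the 3 genes with the smallest p of each pathway list and the 5 genes closest to the mean profile; others are stated as they occur. One marker gene of another cell type is not reported here. Positions are from GENCODE 29 (GRCh38), which holds 57055 of the 60675 identifiers.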

Additional observations from a re-analysis of the deposited data

How the results depend on the processing

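The count of genes past the threshold was 0 in edgeR with all libraries, 19 with DESeq2, 187 without the expression filter and 0 in the other alternatives with all libraries, and 0 to 1 with any 1 library left out (1 without SUPV3L1 knockdown replicate 2); the cause was not tested. C10orf2 was the only 1 of the 8 genes to pass in any of the 14 alternatives (adjusted p = 0.0480 by edgeR without the filter, log2 fold change 1.53). POLRMT, TFB2M, POLG2 and C10orf2 kept their direction in all 14. The median of all genes, 0.0094 in edgeR, was 0.10 with DESeq2, 0.11 without the filter and 0.17 on log2(FPKM + 0.1). On log2(FPKM + 0.1) and log2(FPKM + 1) TFAM turned to 0.10 and 0.087 and POLG to 0.16 and 0.14. Leaving out each library gave -0.21 to 0.12 for TFAM, -0.080 to 0.15 for TEFM, -0.18 to 0.18 for POLG, -0.43 to 0.24 for SSBP1, 0.033 to 0.35 for POLRMT, 0.076 to 0.66 for TFB2M, -0.78 to -0.32 for POLG2 and 1.03 to 2.74 for C10orf2. Of the ratios, SSBP1 to POLG ranged from -0.29 to 0.14, TFB2M to POLRMT from -0.093 to 0.35, TEFM to POLRMT from -0.39 to 0.14, POLG2 to POLG from -0.89 to -0.22, TFAM to POLRMT from -0.40 to -0.14 and C10orf2 to POLG from 1.37 to 2.70, and the FPKM of C10orf2 against POLRMT from -0.011 to 0.50. No paired analysis was possible because the labels give no replicate numbers that the groups share.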

Other observations

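J2 binds double-stranded RNA, so the annotated transcripts of the 8 genes were searched for inverted repeats, that is, stretches of at least 50 bases that match the reverse complement of another stretch of the same transcript at 75% identity or more. None was found in any of their 33 protein-coding transcripts in GENCODE 29, which are spliced sequences, so introns were not searched. Among 10942 tested genes with a protein-coding transcript, 8.24% had such a repeat in their longest one, and 4.28% of the 8034 whose longest transcript lay within the length range of the 8 genes.

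Exons of 4 of the 8 genes overlap exons of a gene on the opposite strand. POLG shares 458 exon bases with FANCI, a DNA repair gene, which was at 95.2, 109 and 121 CPM with PNPT1 knocked down, and at 99.6, 79.5 and 57.2 with SUPV3L1 knocked down. TEFM shares 301 exon bases with ADAP2, which had 0 to 30 counts per library, and 542 with the antisense gene AC130324.3. C10orf2 shares 149 with MRPL43, and SSBP1 shares 26 with WEE2-AS1, which had 0 to 12 counts per library. SSBP1 also shares 108 with the pseudogene TAS2R6P on its own strand. POLRMT, TFAM, TFB2M and POLG2 share none. Whether paired transcripts of these loci were precipitated was not tested.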
